A study of Xenopus laevis with 40 samples.

Results

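The hes5 genes of Xenopus laevis were followed through 40 RNA-sequencing libraries of animal cap explants. Members were all gene IDs whose symbol in the authors' ID-to-symbol table begins with hes5 and a point, on both the L and the S chromosomes. This rule took 17 of 51017 listed gene IDs, of which 12 were in a first list of names and 5 were added by the rule.

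The hes5 genes encode basic helix-loop-helix repressors of transcription that act downstream of Notch. When a ligand on one cell binds Notch on its neighbour, the receptor's intracellular domain is cut free, enters the nucleus and joins the DNA-binding protein Su(H), the product of rbpj, to switch such genes on. Their products hold back genes that drive a cell towards a specialised fate, and in the frog embryo this lateral inhibition spaces both neurons in the neural plate and multiciliated cells in the skin. Among the members, hes5.1 is the Xenopus gene known as esr-1, a classic readout of Notch in the neural plate, and hes5.10 is esr-6e, a readout of Notch in the skin. The older names esr9 and esr10, attached here to hes5.6, hes5.7 and hes5.5, are known from segmenting mesoderm in Xenopus.

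All embryos were wild type, and every explant was cut from the animal portion at stage 8 and grown to the Nieuwkoop and Faber stages labelled st10.5, st16, st25 and st32. Embryos had received 4 injections into the animal hemisphere at the four-cell stage. The injected material was nicd mRNA at 120 ng/ul (the Notch intracellular domain, a gain of Notch), suh-dbm mRNA at 100 ng/ul (a loss of Notch), suh-dbm together with dnmcidas mRNA at 100 ng/ul each (a loss of Notch with dominant-negative multicilin), or 3 pmol of foxa1 morpholino (foxa1MO, which targets the start codon). Control embryos were uninjected, so the design holds no control for the injection itself. Each of the 20 groups had 2 libraries, 1 from each of 2 experiments that used different females and fertilizations, and all 4 treatments of a stage were set against the same pair of uninjected libraries. Injected RNA is shared out unevenly among cells and is lost with time, and whole caps were extracted, so a level is an average over all cells: fewer cells of a type and less RNA per cell cannot be told apart.

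Libraries held 20.2 to 99.4 M counts (median 36.3 M) and 28935 to 35007 detected genes. The injected RNAs were visible at st10.5 in the caps that received them. notch1.S, to which reads of nicd can map, had 18802 and 9964 CPM (counts per 1000000 counts of the library) at st10.5 and 94.9 and 379 CPM at st32 in nicd caps, against 135 and 142 CPM and 11.8 and 11.4 CPM in uninjected caps. Uninjected caps carried the epidermis markers of the label from st16 on. The summed level over 8 copies of tp63, itln1, foxj1 and foxi1 was 1806 and 1722 CPM at st16 and 10782 and 7230 CPM at st32. At st10.5 it was 24.1 and 217 CPM, so these uninjected libraries differed from each other. itln1.L had a median of 1321 CPM over the 40 libraries, and the next highest median was 106 CPM, of foxi1.L. The mesoderm list summed to 0.906 to 19.1 CPM in the 8 uninjected libraries, while msgn1.S was at 0 in all 40 libraries of the series and actc1.S reached 135 CPM in 1 of them.

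Every member passed the filter on low counts, and 16 would have passed it without the nicd libraries (hes5.8.S would not). The deposited symbols often join names, so each member is called here by the RefSeq name (assembly Xenopus_laevis_v10.1) that its symbol matches. All 17 matched. The match was made on the hes5 name and copy letter in the symbol, so it is no check of the locus. hes5.1.L (gene18133), hes5.1.S (gene37268), hes5.2.L (gene19724) and hes5.2.S (gene34361) carry the same name in both sources. hes5.3_hes3.3.L (gene5629), hes5.4_hes8.L (gene3094), hes5.4.S_hes8.S (gene20062), hes5.5.L_LOC108696613 (gene43204) and hes5.5.S_esr10.S (gene2785) are hes5.3.L, hes5.4.L, hes5.4.S, hes5.5.L and hes5.5.S. hes5.6.L_hes9-1.L (gene1345), hes5.6.S_hes9-1.S (gene20556), hes5.7.L_hes9.1.S (gene45923), hes5.8.L_hes5_X2.L (gene134) and hes5.8.S_hes5_X2.S (gene13524) are hes5.6.L, hes5.6.S, hes5.7.L, hes5.8.L and hes5.8.S. hes5.9_hes5_X1.L (gene9235), hes5.10_hes3.1.L (gene7690) and hes5.10_hes3.1.S (gene1474) are hes5.9.L, hes5.10.L and hes5.10.S.

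In the RefSeq annotation the family lies in a pair of runs in each of the L and S gene sets. hes5.1 and hes5.2 are neighbours beside pank4, and hes5.3 to hes5.10 follow each other in number order up to zbtb48. RefSeq lists 20 hes5 loci, and the 3 without a hes5 symbol in the authors' table are S copies of hes5.3, hes5.7 and hes5.9. Close copies can share reads, and how reads with several matches were counted is not given in the sources used here, so a difference between an L and an S copy is uncertain.

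**Figure D1:**
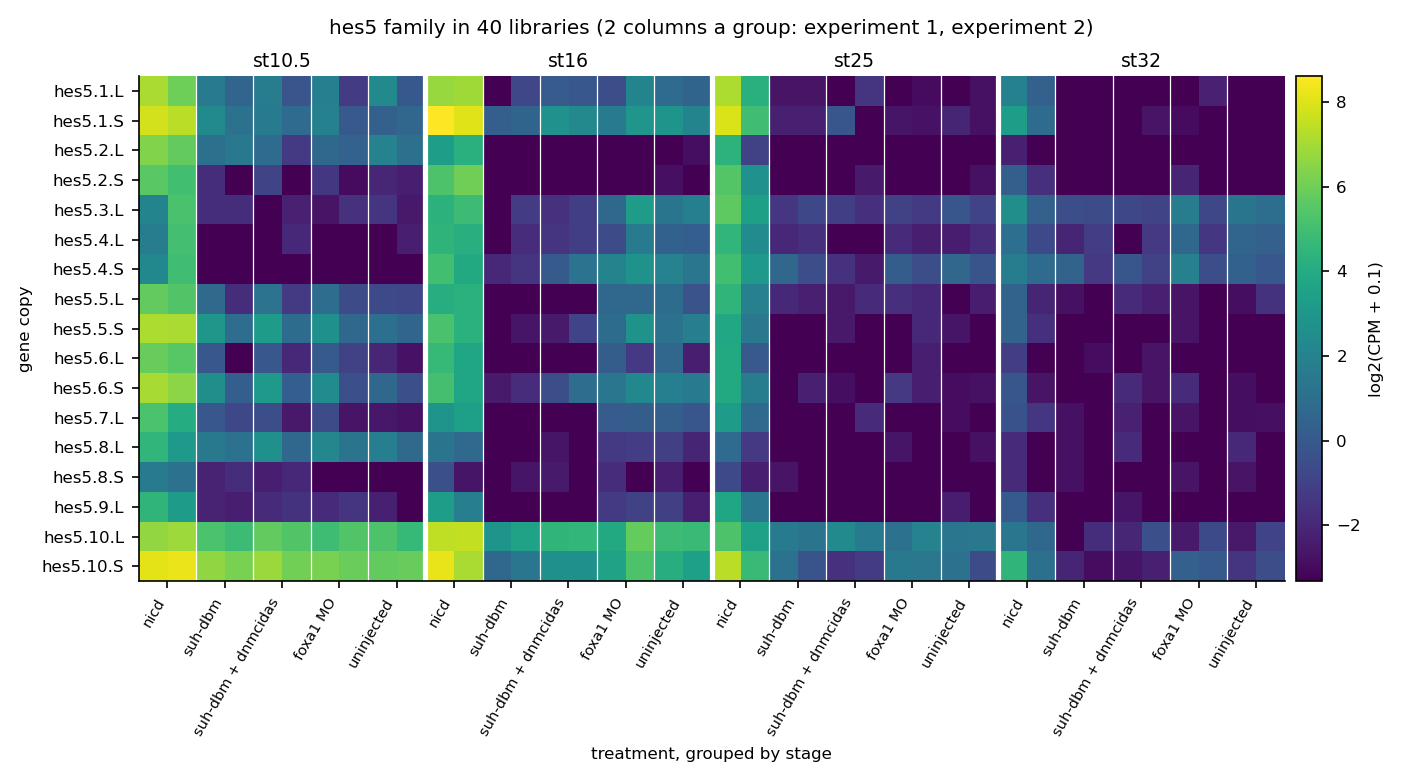
Level of each of the 17 hes5 genes (rows) in the 40 libraries (columns, 2 per group in the order experiment 1, experiment 2), as log2(CPM + 0.1). Within each stage nicd is at the left and uninjected at the right; the nicd columns are the brightest of each stage for most genes, and the bottom pair, hes5.10.L and hes5.10.S, is bright in all treatments at st10.5.

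In uninjected caps hes5.10 gave most of the reads of the 17 members at the first stages. Its 2 copies held 83.5% and 90.3% of these reads at st10.5, and 63.2% and 64.0% at st16. The 3 S copies without a hes5 symbol are left out of these shares. Of them the S copy of hes5.3 averaged 0.147 CPM at st10.5 and 13.2 CPM at st16 in uninjected caps. With it counted, the st16 shares of hes5.10 would be lower. hes5.10.L was at 38.3 and 25.3 CPM at st10.5, 29.3 and 25.9 CPM at st16, 2.45 and 2.67 CPM at st25 and 0.0759 and 0.425 CPM at st32 in uninjected caps. hes5.10.S was at 53.9 and 56.8, 17 and 10.7, 2.08 and 0.593, and 0.247 and 0.618 CPM at the same stages. Both copies were therefore highest in the first 2 stages, and their st25 libraries lay below both st16 libraries.

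The members did not share 1 time course in uninjected caps. Tested with edgeR's quasi-likelihood test, with Benjamini-Hochberg adjustment over all 31648 tested genes and an adjusted p under 0.05 as the threshold, 5 members rose and 1 fell between st10.5 and st16, in a comparison that called 22.2% of tested genes higher and 22.6% lower. Among 17 members, 5 risers are near the share of all tested genes, and the 1 that fell is under it. The risers were hes5.1.S, hes5.3.L, hes5.4.L, hes5.4.S and hes5.7.L. hes5.4.S had 3.76 and 2.47 CPM at st16 and no count in either library at st10.5, so it was at least 107-fold higher (adjusted p = 4.26e-05; the bound sets 3 counts over the 2 libraries at st10.5). hes5.3.L had 2.40 and 3.50 CPM at st16 and 0.263 and 0.0734 CPM at st10.5, a log2 fold change of 4.41 ± 1.18 (SE; adjusted p = 0.00361). hes5.2.L went the other way, with 0 and 0.0343 CPM at st16 and 3.75 and 2.01 CPM at st10.5, a pooled ratio of 0.0042 (95% interval 0.000506 to 0.0153, counting error only; adjusted p = 0.00402).

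With the experiment as a block, 9 members passed for that step, 7 higher and 2 lower: hes5.6.S (adjusted p = 0.0487) and hes5.9.L (0.0465) joined the risers and hes5.8.L (0.00754) joined hes5.2.L. The block fit called 24.6% of tested genes higher and 25.4% lower. Without the first uninjected library at st10.5, 3 members passed. The calls of hes5.2.L, hes5.3.L and hes5.4.S held with each of the 4 libraries left out in turn.

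Between st16 and st25 all 17 members had a fitted fold change below 0 in uninjected caps, with a median log2 fold change of -3.67 (-3.46 with members at 0 counts set to their bound). In 3 of them the libraries of the 2 stages overlapped. The share of all tested genes with a fold change below 0 is not given here. By the test 9 members fell, where 11.4% of all tested genes were called lower: hes5.1.L, hes5.1.S, hes5.5.L, hes5.5.S, hes5.6.L, hes5.6.S, hes5.7.L, hes5.10.L and hes5.10.S. hes5.1.S had 0.139 and 0.0456 CPM at st25, against 7.18 and 4.05 CPM at st16, and fell by 5.90 on the log2 scale (SE 1.15, adjusted p = 0.000765). hes5.10.L fell by 3.53 (SE 0.71, adjusted p = 0.00084). These 2 calls held with each library left out, while the count was 5 without the first st16 library, 5 without the first st25 library and 4 without the second st25 library.

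The other 8 members, hes5.2.L, hes5.2.S, hes5.3.L, hes5.4.L, hes5.4.S, hes5.8.L, hes5.8.S and hes5.9.L, did not pass the test for a fall to st25. hes5.3.L was at 2.41 and 1.89 CPM at st32 and at 0.803 and 0.434 CPM at st25. hes5.4.L had 1.39 and 1.16 CPM at st32, above its 0.0926 and 0.183 CPM at st25 in both libraries, with a log2 fold change of 3.17 ± 1.31 that did not pass (adjusted p = 0.258). For st32 against st25, 1 member fell, hes5.10.L, by 3.64 on the log2 scale (SE 0.85, adjusted p = 0.0279), in a comparison that called 0.875% of tested genes lower. That call was lost without any 1 of the 4 libraries (adjusted p = 0.0501 to 0.503).

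**Figure D2:**
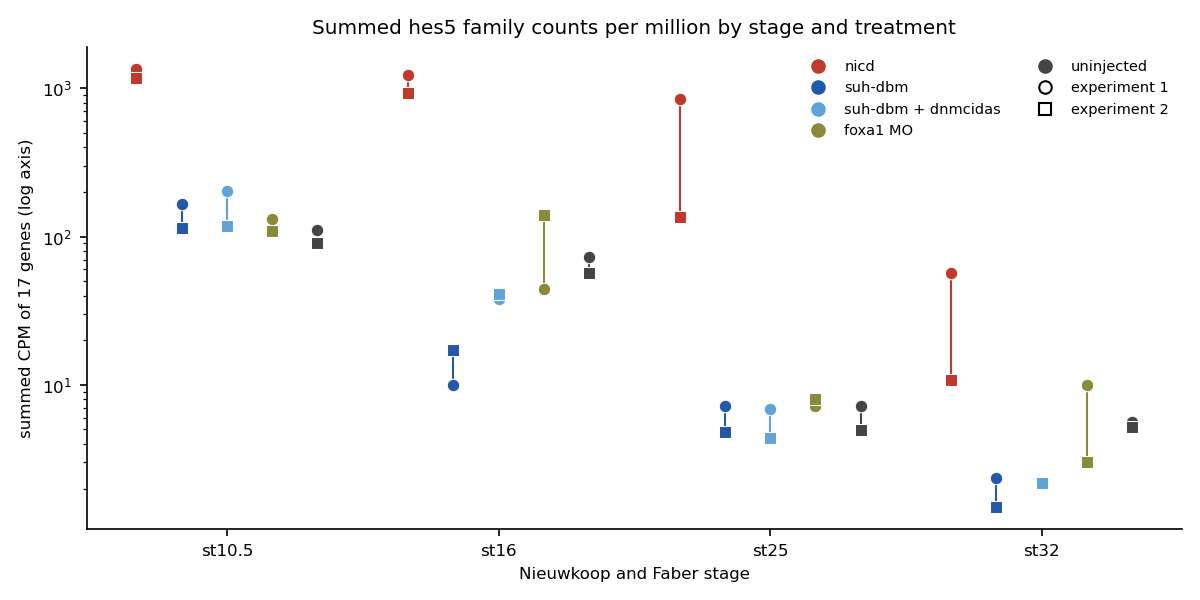
Summed CPM of the 17 hes5 genes (log axis) by stage and treatment, with nicd leftmost and uninjected rightmost within each stage; circles are experiment 1, squares experiment 2, and the line joins the 2 libraries of a group. nicd stands above every other group at st10.5, st16 and st25, and its experiments separate at st25 and st32.

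Summed over the 17 members, the family was at 1351 and 1180 CPM in nicd caps at st10.5, against 110 and 90.9 CPM in uninjected caps. At st16 the sums were 1225 and 934 CPM in nicd caps and 73.3 and 57.1 CPM in uninjected caps, and at st25 they were 852 and 135 CPM in nicd caps and 7.24 and 4.95 CPM in uninjected caps. At st32 nicd caps had 57.1 and 10.8 CPM and uninjected caps 5.66 and 5.21 CPM. The ratio of mean sums was 12.6 at st10.5, 16.6 at st16, 81.0 at st25 and 6.25 at st32. Taken within experiments 1 and 2 it was 12.2 and 13 at st10.5, 16.7 and 16.4 at st16, 118 and 27.2 at st25, and 10.1 and 2.08 at st32, so the level in nicd caps was highest at st10.5 while its distance from uninjected caps was greatest at st25 in both. Ranked by mean sum, nicd at st10.5 (1266 CPM) and st16 (1079 CPM) led all 20 groups, and their libraries overlapped with each other. Neither overlapped with the third, nicd at st25 (493 ± 508 CPM, SD, n = 2). From there the libraries of neighbouring groups overlapped, except after uninjected at st16 (ninth, 65.2 CPM), suh-dbm at st16 (twelfth, 13.5 CPM) and uninjected at st32 (eighteenth, 5.43 CPM).

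hes5.8.S entered the tests only through its counts in nicd caps, so its difference there was set by the filter, and counts and medians for nicd are given over the other 16 members. With nicd, all 16 stood above uninjected caps at st10.5 in both libraries, an ordering found for 7.66% of tested genes. Their median log2 fold change was 6.69 (6.69 with members at 0 counts set to their bound), against -0.10 for all tested genes. Of the 16 members 4 passed the test, hes5.1.S, hes5.3.L, hes5.4.S and hes5.7.L, where 0.0411% of tested genes were called higher. hes5.1.S had 225 and 164 CPM in nicd caps and 1.17 and 1.42 CPM in uninjected caps, a log2 fold change of 7.17 ± 1.08 (adjusted p = 0.00505). hes5.7.L had 36.9 and 16.6 CPM in nicd caps and 0.0701 and 0.0489 CPM in uninjected caps, a log2 fold change of 8.64 ± 1.46 (adjusted p = 0.0191). hes5.4.S had 4.66 and 30.4 CPM in nicd caps and no count in uninjected caps, so it was at least 570-fold higher (152-fold from experiment 1 alone; adjusted p = 0.00226).

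With the experiment as a block, 11 members passed at st10.5, where the block fit called 0.104% of tested genes higher. The block added hes5.2.S, hes5.4.L, hes5.5.L, hes5.5.S, hes5.6.L, hes5.6.S and hes5.9.L, with adjusted p of 0.00208 to 0.0217. hes5.5.S was one of these, with 142 and 136 CPM in nicd caps and 1.93 and 1.37 CPM in uninjected caps, a log2 fold change of 6.33 ± 1.23 (adjusted p = 0.0522, with the block 0.0093). hes5.1.L had 135 and 63.7 CPM in nicd caps and 5.2 and 0.881 CPM in uninjected caps, and did not pass either fit (adjusted p = 0.272, with the block 0.0968). No member passed without the first or without the second uninjected library, when a single control library was left and was assumed to vary like the other groups.

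hes5.10, the member with the most reads in uninjected caps at st10.5, had the smallest differences there. hes5.10.L was at 100 and 115 CPM in nicd caps and 38.3 and 25.3 CPM in uninjected caps, a log2 fold change of 1.70 ± 0.65 (adjusted p = 1). hes5.10.S was at 280 and 302 CPM in nicd caps and 53.9 and 56.8 CPM in uninjected caps, a log2 fold change of 2.33 ± 0.80 (adjusted p = 1). Both nicd libraries lay above both uninjected libraries for each copy. Of the reads of the 17 members, hes5.10 accordingly gave 28.1% and 35.3% in nicd caps, against 83.5% and 90.3% in uninjected caps. The share from hes5.1 was 26.6% and 19.3% in nicd caps, against 5.78% and 2.53% in uninjected caps.

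At st16, 10 members rose with nicd: hes5.1.L, hes5.1.S, hes5.2.L, hes5.2.S, hes5.4.L, hes5.5.L, hes5.5.S, hes5.9.L, hes5.10.L and hes5.10.S, where 2.71% of tested genes were called higher. With the experiment as a block all 16 passed, beside 4.02% of tested genes. In all 16 both nicd libraries lay above both uninjected libraries (24.5% of tested genes), and the median log2 fold change was 3.84 (3.83 with members at 0 counts set to their bound), against 0.01 for all tested genes. hes5.1.S had 390 and 263 CPM in nicd caps and 7.18 and 4.05 CPM in uninjected caps, a log2 fold change of 5.80 ± 1.00 (adjusted p = 0.000346).

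hes5.2 was almost silent in uninjected caps at st16 and clearly present with nicd. hes5.2.S had 38.8 and 65.3 CPM in nicd caps and 0.0403 and 0 CPM in uninjected caps, a pooled ratio of 1986 (95% interval 775 to 7291, counting error only; adjusted p = 0.00036). hes5.2.L had 10.2 and 18.8 CPM in nicd caps and 0 and 0.0343 CPM in uninjected caps, a pooled ratio of 1099 (304 to 9090; adjusted p = 0.00276). hes5.10.L had 178 and 184 CPM in nicd caps and 29.3 and 25.9 CPM in uninjected caps, a log2 fold change of 2.66 ± 0.68 (adjusted p = 0.0104). hes5.10.S had 293 and 137 CPM in nicd caps and 17 and 10.7 CPM in uninjected caps, a log2 fold change of 3.91 ± 0.86 (adjusted p = 0.00302).

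The st16 count was 5 without the first uninjected library, 3 without the second and 6 without the first nicd library. The calls of hes5.1.S, hes5.2.L and hes5.2.S held with each library left out. hes5.8.S, with 0.665 and 0.0595 CPM in nicd caps and 0.101 and 0 CPM in uninjected caps, overlapped between the groups.

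At st25, when the family was low in uninjected caps, all 16 members rose with nicd. hes5.8.S, for which no test is given since its difference was set by the filter, had 0.530 and 0.100 CPM in nicd caps and no count in uninjected caps. The comparison called 5.21% of tested genes higher, and 6.97% with the block. In all 16 both nicd libraries lay above both uninjected libraries (27.9% of tested genes), with a median log2 fold change of 7.81 (7.81 with members at 0 counts set to their bound). hes5.1.S had 247 and 31.3 CPM in nicd caps and 0.139 and 0.0456 CPM in uninjected caps, a log2 fold change of 10.44 ± 1.30 (adjusted p = 5.43e-06). hes5.1.L had 142 and 19.2 CPM in nicd caps and 0 and 0.0456 CPM in uninjected caps, a pooled ratio of 4110 (1137 to 33948; adjusted p = 8.01e-05).

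hes5.2.L, with 20.7 and 0.401 CPM in nicd caps and no count in uninjected caps, was at least 353-fold higher at st25 (14.5-fold from experiment 2 alone; adjusted p = 0.00245). hes5.10.S had 165 and 26.3 CPM in nicd caps and 2.08 and 0.593 CPM in uninjected caps, a log2 fold change of 6.15 ± 0.97 (adjusted p = 6.6e-05). hes5.10.L had 38.2 and 11.2 CPM in nicd caps and 2.45 and 2.67 CPM in uninjected caps, with the smallest fitted log2 fold change of the family at this stage, 3.29 ± 0.70 (adjusted p = 0.00197). In each of these copies the nicd library of experiment 1 was the higher one, and that of experiment 2 still lay above both uninjected libraries. The calls of 10 members held with each library left out; those of hes5.3.L, hes5.4.L, hes5.4.S, hes5.6.L, hes5.8.L and hes5.10.L were each lost without at least 1 library (adjusted p of 0.0526 to 0.328).

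At st32, 5 members rose with nicd: hes5.1.L, hes5.1.S, hes5.9.L, hes5.10.L and hes5.10.S, where 1.78% of tested genes were called higher. hes5.1.S had 10.3 and 1.67 CPM in nicd caps and no count in uninjected caps, at least 170-fold higher (43.9-fold from experiment 2 alone; adjusted p = 0.000505), and was the one call that held with each library left out. hes5.10.S had 22.6 and 2.00 CPM in nicd caps and 0.247 and 0.618 CPM in uninjected caps, a log2 fold change of 4.93 ± 0.98 (adjusted p = 0.00148). hes5.10.L had 2.47 and 1.46 CPM in nicd caps and 0.0759 and 0.425 CPM in uninjected caps, a log2 fold change of 3.18 ± 0.85 (adjusted p = 0.0214). hes5.1.L had 3.64 and 1.16 CPM in nicd caps and no count in uninjected caps, at least 66.5-fold higher (30.4-fold from experiment 2 alone; adjusted p = 0.0172, and 0.106 to 0.207 without the first nicd or either uninjected library). hes5.9.L had 0.954 and 0.216 CPM in nicd caps and no count in uninjected caps, at least 16.4-fold higher (5.66-fold from experiment 2 alone; adjusted p = 0.0372, and 0.155 to 0.286 without the first nicd or either uninjected library).

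With the experiment as a block 7 members passed at st32, where 2.72% of tested genes were called higher; the block added hes5.2.S (adjusted p = 0.0816, with the block 0.0315) and hes5.5.S (0.0521 and 0.0387). The count was 1 without the first uninjected library, 1 without the first nicd library and 3 without the second uninjected library. The hes5.3 and hes5.4 copies did not pass: hes5.3.L was at 5.94 and 1.16 CPM in nicd caps and 2.41 and 1.89 CPM in uninjected caps, a log2 fold change of 0.70 ± 0.99 (adjusted p = 0.831), and hes5.4.L had a log2 fold change of -0.04 ± 1.14 (adjusted p = 1). In 10 of 16 members both nicd libraries lay above both uninjected libraries (23.8% of tested genes), and the median log2 fold change was 4.15 (3.56 with members at 0 counts set to their bound).

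**Figure D3:**
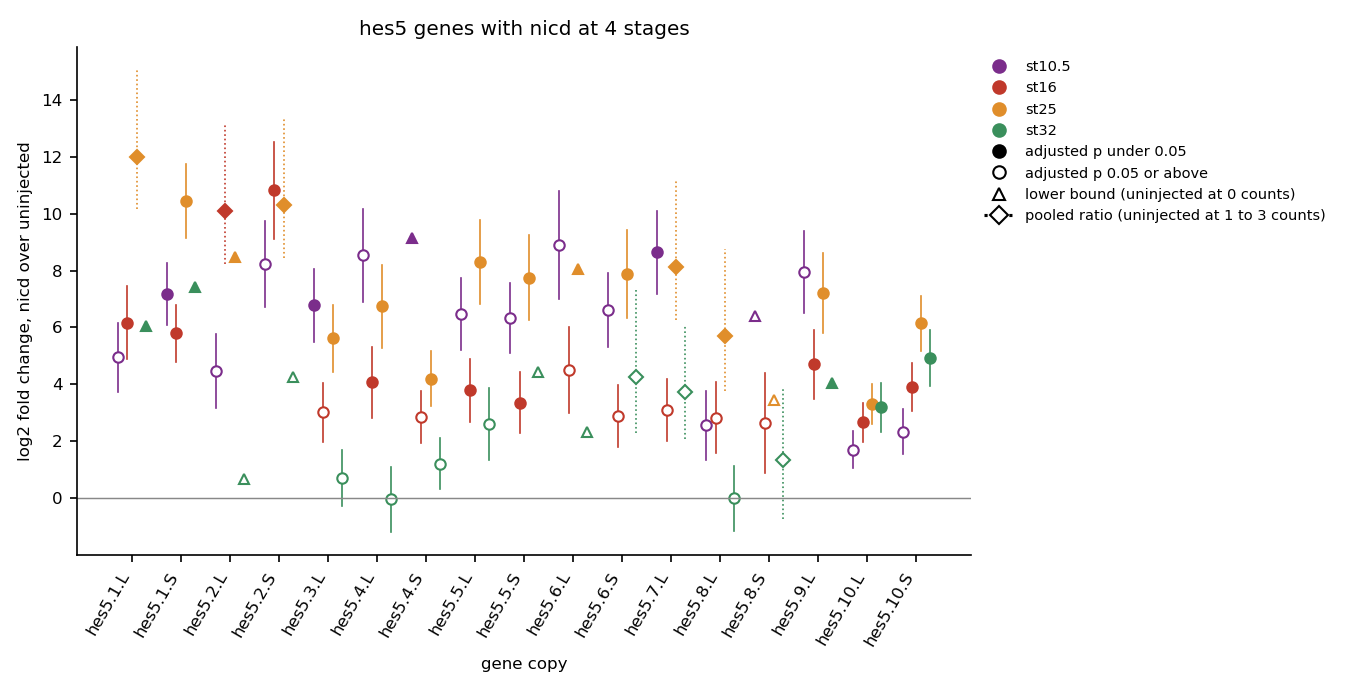
log2 fold change of nicd over uninjected caps for each hes5 gene at the 4 stages, with bars of 1 SE. Filled points have an adjusted p under 0.05; triangles are lower bounds for genes with no count in uninjected caps, and diamonds are pooled ratios with dotted 95% counting intervals where uninjected caps held 1 to 3 counts. hes5.10.L and hes5.10.S have the narrowest bars, and the largest values of most genes are at st10.5 or st25. Genes at or under 3 counts in both groups are not drawn.

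Averaged over the 4 stages, all 16 members rose with nicd (7.73% of tested genes higher), and 13 of these calls held with each library left out. Without the first nicd library at st32, hes5.2.L, hes5.6.L and hes5.8.L no longer passed. The nicd library left at st32 held no count of these 3, and their average then had an adjusted p of 1 with fitted values still above 0 (6.51, 6.21 and 1.49). In 9 members the uninjected libraries of at least 1 stage held no count, so the size of their average depends on the fit. The mean log2 fold change was 2.71 ± 0.36 for hes5.10.L (adjusted p = 3.26e-06), 4.33 ± 0.45 for hes5.10.S (adjusted p = 6.33e-08) and 4.03 ± 0.56 for hes5.3.L (adjusted p = 5.6e-06). Counts for all 17 members were found in nicd caps, 13 of them in 8 of 8 libraries and hes5.2.L, hes5.6.L, hes5.8.L and hes5.8.S in 7.

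Whether the nicd effect differed between successive stages was tested by interaction terms. From st10.5 to st16 the effect fell for 1 member, hes5.4.S (adjusted p = 0.00943), where 1.99% of tested genes had a falling effect. With the block hes5.7.L also passed (adjusted p = 0.0849, with the block 0.0218; 2.7% of tested genes). The call of hes5.4.S was lost without the first uninjected library at st10.5 (adjusted p = 0.0764) or without the second nicd library at st10.5 (0.0615). No member passed for the later steps with edgeR, while DESeq2 called 1 in each, and 7 and 5 members had an unadjusted p under 0.05 there, beside 7.52% and 5.26% of tested genes. Of tested genes 0.177% and 0.00316% passed in those steps.

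The 2 nicd experiments differed from each other, and the difference changed with stage. At st10.5 12 members were higher in experiment 1, but hes5.3.L, hes5.4.L and hes5.4.S were higher in experiment 2, by ratios of 8.89, 9.94 and 6.51. hes5.3.L had 4.09 and 36.4 CPM in the nicd caps of experiments 1 and 2, and hes5.4.L had 3.27 and 32.6 CPM. At st25 and at st32 all 17 members, hes5.8.S among them, were higher in experiment 1. Some were near the floor at st32, where hes5.2.L, hes5.6.L, hes5.8.L and hes5.8.S had 0.108 to 0.347 CPM in experiment 1 and 0 in experiment 2. notch1.S was lower in experiment 1 at st25 and st32, with 424 and 792 CPM at st25 and 94.9 and 379 CPM at st32. At st10.5 and st16 it was higher in experiment 1, with 18802 and 9964 CPM and 6573 and 2104 CPM. The family sum was also higher in experiment 1 at st10.5 and st16, with 1351 and 1180 CPM and 1225 and 934 CPM. With 1 library per experiment and stage these differences have no test, and the share of all tested genes with the same order was not taken.

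Summed markers of other tissues also differed in nicd caps. The neural list (14 copies of 8 genes) summed to 296 and 355 CPM at st16, 369 and 459 CPM at st25 and 503 and 323 CPM at st32 in nicd caps, against 114 and 155, 64.9 and 110, and 38.5 and 102 CPM in uninjected caps. At st10.5 the neural sums were 1185 and 445 CPM in nicd caps and 1109 and 444 CPM in uninjected caps. A few copies can carry the neural sum. Over the 40 libraries sox3.S reached 896 CPM, otx2.L 369, sox3.L 325 and tubb2b.L 215, and the next highest maximum was 33.9 CPM, of ncam1.L. Of the neuronal markers neurod1.L and neurod1.S were at 0 in 27 and 33 of the 40 libraries, while tubb2b.L was at 0 in none, with a median of 37.2 CPM. Single markers were not compared between nicd and uninjected caps. The epidermis list summed to 431 and 583 CPM at st16, 885 and 1438 CPM at st25 and 4018 and 3703 CPM at st32 in nicd caps, against 1806 and 1722, 5638 and 4403, and 10782 and 7230 CPM in uninjected caps. Its sums at st10.5 were 20.1 and 59.9 CPM in nicd caps and 24.1 and 217 CPM in uninjected caps. The mesoderm list (10 copies, with actc1 and myod1 among them) summed to 2.36 and 137 CPM at st16, 61.4 and 202 CPM at st25 and 37.5 and 164 CPM at st32 in nicd caps, against 0.906 and 4.73, 9.46 and 15.3, and 13.2 and 19.1 CPM in uninjected caps. At st10.5 the mesoderm sums were 1.10 and 5.81 CPM in nicd caps and 1.58 and 5.94 CPM in uninjected caps. Experiment 2 was the higher one at each stage in both nicd and uninjected caps. The endoderm list (8 copies of 5 genes) summed to 24.7 and 35.2 CPM at st10.5, 58.2 and 92.5 CPM at st16, 127 and 76.3 CPM at st25 and 66.1 and 28.9 CPM at st32 in nicd caps, against 47.9 and 115, 72.2 and 58.1, 53.2 and 41.8, and 11.8 and 20 CPM in uninjected caps. The endoderm sum is mostly a2m.S, with a median of 49.3 CPM over the 40 libraries. The next highest median of that list was 1.26 CPM, of gata6.L. The part of these shifts in the hes5 values was not tested.

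With suh-dbm, which blocks the Notch response, 14 of 17 members had both libraries below both uninjected libraries at st16, an ordering found for 14.9% of tested genes, and none passed the test. The median log2 fold change was -4.00 (-2.82 with members at 0 counts set to their bound), against -0.11 for all tested genes. By edgeR's quasi-likelihood test 0 members passed, where 0% of tested genes were called lower and 0.00316% higher, 1 gene in all; DESeq2 also called 0 members. At an unadjusted p under 0.05 there were 13 of 17 members, against 671 (2.12%) of 31648 tested genes.

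The lower counts at st16 included hes5.10, the epidermal gene with the most reads. hes5.10.S was at 1.53 and 2.51 CPM in suh-dbm caps and 17 and 10.7 CPM in uninjected caps, a log2 fold change of -2.87 ± 0.85 (adjusted p = 1 by edgeR). hes5.10.L was at 7.11 and 11.7 CPM in suh-dbm caps and 29.3 and 25.9 CPM in uninjected caps, a log2 fold change of -1.64 ± 0.66 (adjusted p = 1 by edgeR). hes5.1.S was at 1.12 and 1.35 CPM in suh-dbm caps and 7.18 and 4.05 CPM in uninjected caps, a log2 fold change of -2.27 ± 0.91 (adjusted p = 1 by edgeR). In all 3 both suh-dbm libraries were below both uninjected ones.

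In the hes5.3 to hes5.9 run several members had no count in either suh-dbm library at st16. hes5.5.L was at 1.77 and 0.72 CPM in uninjected caps and thus at least 26.5-fold lower with suh-dbm, hes5.7.L at least 19.5-fold and hes5.6.L at least 18.0-fold lower. The bound of hes5.6.L rests mostly on experiment 1, whose uninjected library held 142 counts of it, against 6 in experiment 2. hes5.4.S had 0.161 and 0.245 CPM in suh-dbm caps and 3.76 and 2.47 CPM in uninjected caps, a log2 fold change of -4.00 ± 1.06 (adjusted p = 1 by edgeR). hes5.3.L had 0 and 0.336 CPM in suh-dbm caps and 2.40 and 3.50 CPM in uninjected caps, a log2 fold change of -4.09 ± 1.21 (adjusted p = 1 by edgeR). hes5.2.L and hes5.2.S, close to 0 in uninjected caps at this stage, and hes5.8.S were the 3 members whose libraries overlapped. Summed over the family, suh-dbm caps were at 0.136 and 0.299 of the uninjected level in experiments 1 and 2. The epidermis markers summed to 2990 and 2056 CPM in suh-dbm caps and 1806 and 1722 CPM in uninjected caps at st16, and the neural ones to 65.4 and 154 CPM and 114 and 155 CPM; their part in the hes5 values was not tested.

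**Figure D4:**
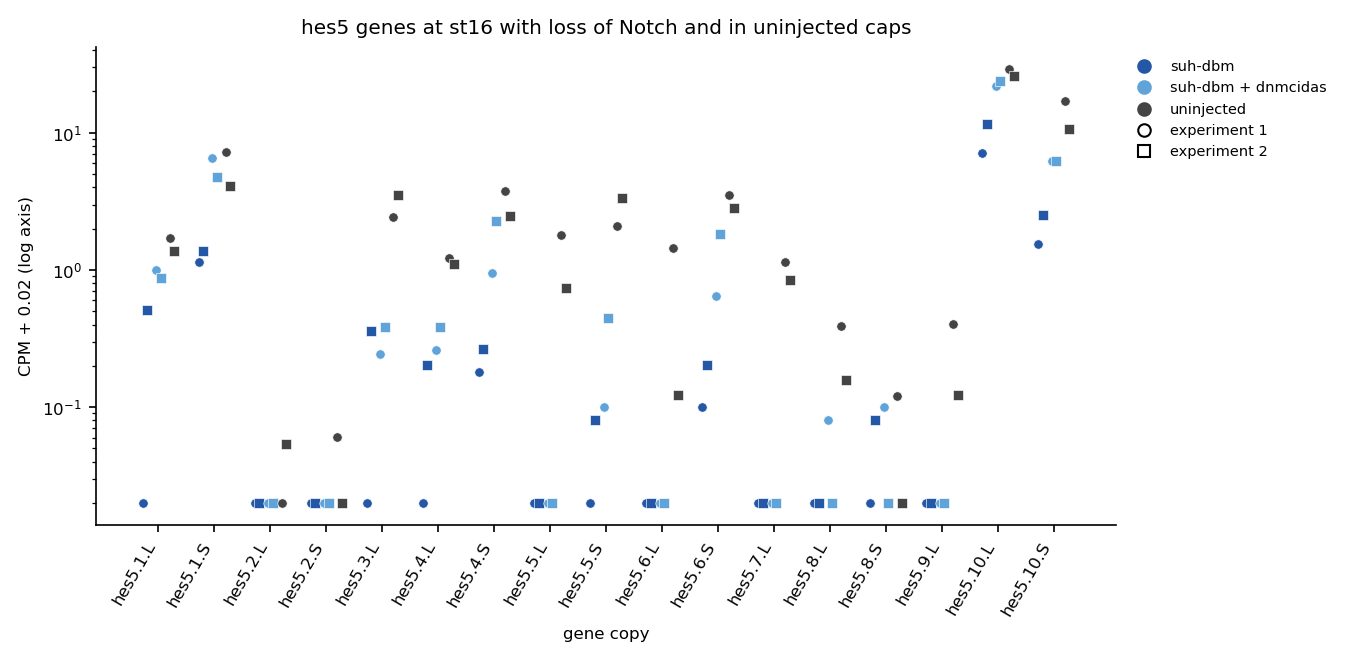
CPM + 0.02 (log axis) of each hes5 gene at st16 in suh-dbm caps, caps with suh-dbm and dnmcidas, and uninjected caps (left to right within a gene); circles are experiment 1, squares experiment 2, and points on the lowest line have no count. The suh-dbm points are below the uninjected points for 14 of 17 genes, and those with dnmcidas added lie between them for several.

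The other stages differed from each other. At st10.5, 4 members had both suh-dbm libraries above both uninjected libraries and 0 had both below (4.72% and 18% of tested genes). hes5.10.S was at 97.8 and 73.1 CPM in suh-dbm caps, against 53.9 and 56.8 CPM in uninjected caps. In caps with suh-dbm and dnmcidas 7 members lay above in this way and 1 below (9.47% and 11.4% of tested genes). With foxa1MO 4 lay above and 1 below (13.6% and 8.71%). The ratio of mean family sums to uninjected caps at st10.5 was 1.39 with suh-dbm, 1.59 with dnmcidas added and 1.19 with foxa1MO. The higher sums were thus not particular to suh-dbm, and the part of injection itself was not tested. At st25 the family sums of suh-dbm caps were 0.998 and 0.971 of the uninjected level in experiments 1 and 2, with 2 members above in both libraries (15.3% of tested genes). At st32 the sums were 2.37 and 1.5 CPM in suh-dbm caps and 5.66 and 5.21 CPM in uninjected caps, 0.419 and 0.287 of the uninjected level, with 3 members below in both libraries (14% of tested genes). By edgeR 0 members passed at st10.5, st25 and st32, with 2, 0 and 0 members at an unadjusted p under 0.05, and DESeq2 called 0 at each. Over all tested genes edgeR called 0.00316% at st10.5 and 0% at st25 and st32. An unadjusted p under 0.05 was found for 1.97%, 3.55% and 2.56% of them. The change of the suh-dbm effect from st10.5 to st16 had an unadjusted p under 0.05 for 10 members, against 605 of all tested genes; edgeR called 0 members (0% of tested genes) and DESeq2 1. rbpj.S, to which reads of suh-dbm can map, was at 37707 and 41065 CPM at st10.5, 1028 and 2210 at st16, 35.7 and 366 at st25, and 6.66 and 128 CPM at st32 in suh-dbm caps. In uninjected caps it was at 16.2 and 11.1 CPM at st10.5, 5.02 and 5.74 at st16, and 6.05 and 3.65 CPM at st25. Nicd caps, which received no suh-dbm, had 4.23 and 5.56 CPM at st32. The 6.66 CPM of experiment 1 with suh-dbm at st32 was thus near the level without suh-dbm.

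When dnmcidas was added to suh-dbm, 2 members fell at st16 against uninjected caps, where 3.72% of tested genes were called lower and 0.398% higher. hes5.5.L, with no count in either library and 1.77 and 0.72 CPM in uninjected caps, was at least 37.9-fold lower (adjusted p = 0.00973), and hes5.7.L at least 27.8-fold lower (adjusted p = 0.012). With the experiment as a block hes5.9.L also passed (adjusted p = 0.117, with the block 0.0356; 4.42% of tested genes lower), at least 7.64-fold lower. The count was 1 without the first uninjected library and 0 without either library of suh-dbm with dnmcidas. In 13 members both libraries were below both uninjected ones (19.4% of tested genes), and the median log2 fold change was -2.55 (-1.56 with members at 0 counts set to their bound). hes5.10.L, at 22.1 and 23.8 CPM with both RNAs and 29.3 and 25.9 CPM in uninjected caps, had a log2 fold change of -0.40 ± 0.64 (adjusted p = 0.908).

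Averaged over the stages, hes5.3.L fell with suh-dbm and dnmcidas, by 2.25 on the log2 scale (SE 0.62, adjusted p = 0.0208), where 5.79% of tested genes were called lower. As 1 call among 17 members it is near that share and does not set the family apart. The call was lost without the first uninjected library at st10.5 or st25 and without the first library of suh-dbm with dnmcidas at st10.5 or st16 (adjusted p of 0.0529 to 0.143). At st10.5, st25 and st32 0 members passed by edgeR, with 0, 2 and 2 at an unadjusted p under 0.05; DESeq2 called 0, 2 and 0. Of all tested genes 2.87%, 17.9% and 9.92% had such a p, and 0.0126%, 5.59% and 2.74% were called. The averages over stages have no usable error (an SE over 100) for 8 members with both RNAs and 8 with suh-dbm alone, members that had no count in 1 or both groups at some stage. For suh-dbm alone edgeR called 0 members by the average (0.019% of tested genes), and 5 of the other 9 had an unadjusted p under 0.05, against 6.94% of tested genes.

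Set directly against suh-dbm alone, the addition of dnmcidas changed 0 members at any stage by edgeR; DESeq2 called 2 at st25 and 0 elsewhere. Over all tested genes 0.00632%, 3.24%, 6% and 2.92% were called at st10.5, st16, st25 and st32. At st16 8 members had both libraries with dnmcidas above both with suh-dbm alone (25.8% of tested genes), and 3 had an unadjusted p under 0.05. hes5.4.S was at 0.932 and 2.26 CPM with dnmcidas and 0.161 and 0.245 CPM with suh-dbm alone, a log2 fold change of 2.85 ± 1.04 (adjusted p = 0.224 by edgeR). hes5.1.S was at 6.56 and 4.73 CPM with dnmcidas and 1.12 and 1.35 CPM with suh-dbm alone, a log2 fold change of 2.14 ± 0.92 (adjusted p = 0.348 by edgeR). The count of members with an unadjusted p under 0.05 was 0, 3 and 0 at st10.5, st25 and st32. Of all tested genes 3.53%, 11.3%, 17.9% and 10% had such a p at the 4 stages.

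The foxa1 morpholino called 0 members at each stage by edgeR and by DESeq2, with 0 members at an unadjusted p under 0.05 at any stage. Such a p was found for 2.38%, 3.67%, 2.86% and 3.43% of all tested genes at st10.5, st16, st25 and st32. Over all tested genes 0.0158%, 0.0442%, 0.0284% and 0.0126% were called at st10.5, st16, st25 and st32. Its 2 experiments disagreed at st16, where the family sum was 44.6 and 139 CPM in foxa1MO caps and 73.3 and 57.1 CPM in uninjected caps. hes5.10.L showed the split, with 14.9 and 54.3 CPM in foxa1MO caps and 29.3 and 25.9 CPM in uninjected caps (log2 fold change 0.23 ± 0.64, adjusted p = 1 by edgeR). The morpholino acts on translation, so the level of foxa1 RNA does not check the knockdown.

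Gain set against loss of Notch, a contrast without uninjected libraries, called 3 members higher at st10.5 (hes5.1.S, hes5.4.L and hes5.4.S; 0.0442% of tested genes), 16 at st16 (5.35%), 16 at st25 (8.84%) and 8 at st32 (4.02%). With the block 11 passed at st10.5 (0.114%), and 16, 16 and 10 at the later stages (7.46%, 11% and 5.72%). hes5.8.S was the member that did not pass at st16 or st25. At st16 hes5.10.S was at 293 and 137 CPM in nicd caps and 1.53 and 2.51 CPM in suh-dbm caps, a log2 fold change of 6.77 ± 1.00 (adjusted p = 4.33e-05), and hes5.10.L had one of 4.29 ± 0.73 (adjusted p = 0.00021). At st16 14 of the 16 calls held with each library left out and at st25 12 did. The st10.5 count was 0 without either suh-dbm library and 1 without the second nicd library, and the st32 count was 3 without either suh-dbm library or without the first nicd library.

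The L and S copies of hes5.10 also stood in different proportions, counted in reads. The L copy gave 26.4% and 27.6% of hes5.10 reads at st10.5, 37.8% and 57.3% at st16, 18.8% and 29.8% at st25 and 9.84% and 42.2% at st32 in nicd caps. In uninjected caps it gave 41.6% and 30.8%, 63.2% and 70.8%, 54.1% and 81.8%, and 23.5% and 40.7% at the same stages. The L share of both nicd libraries was thus below both uninjected libraries at st10.5, st16 and st25, and overlapped at st32, where uninjected caps held few reads. Averaged over stages the share was 31.2% in nicd caps and 50.8% in uninjected caps, a difference of -19.6 percentage points. In caps with suh-dbm and dnmcidas it was 71.4%, in suh-dbm caps 54.8% and in foxa1MO caps 41.5%. These averages weigh each library alike, and at st32 suh-dbm caps held only 6 and 14 hes5.10 reads (0% and 85.7% from the L copy). In suh-dbm caps the share was 27.9% and 28.5% at st10.5, 82.3% and 82.3% at st16, and 56.4% and 75.0% at st25. No test is given, since the pair was singled out after its values were seen among 7 pairs, and others went the other way. The L copy gave 30.0% and 33.2% of hes5.6 reads in nicd caps and 8.42% and 6.90% in uninjected caps at st10.5, and 40.3% and 55.0% of hes5.4 reads in nicd caps and 24.1% and 30.4% in uninjected caps at st16.

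**Figure D5:**
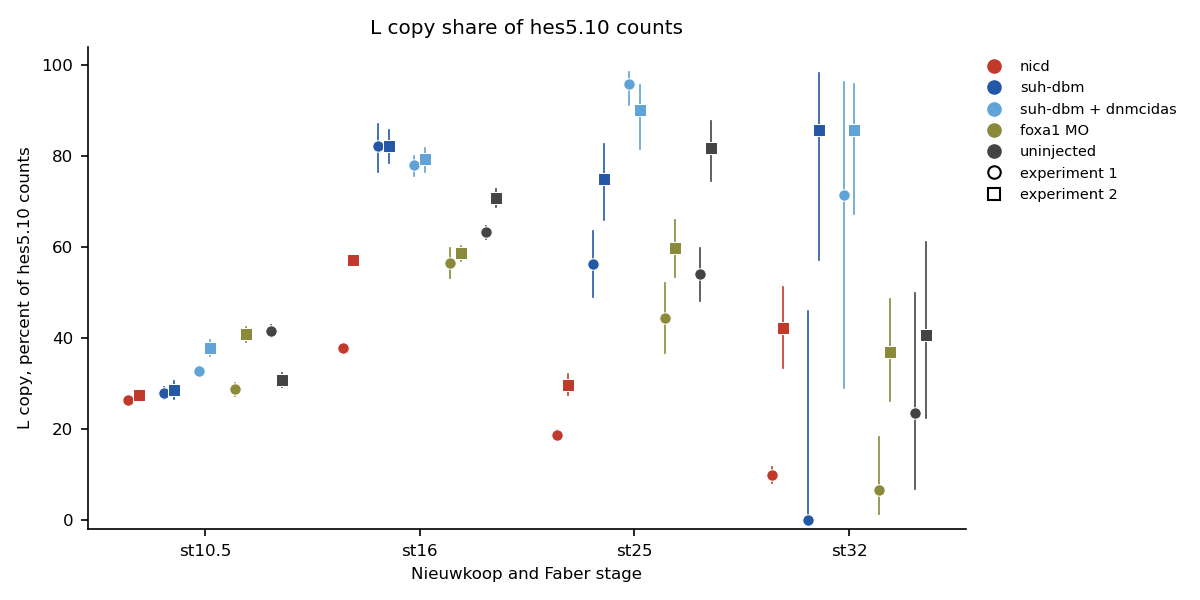
Percent of hes5.10 counts from the L copy in each library, by stage and treatment (nicd leftmost, uninjected rightmost within a stage), with exact 95% binomial intervals that cover counting error only. Circles are experiment 1 and squares experiment 2. The nicd points are below the uninjected points at st10.5, st16 and st25, and the widest intervals are at st32.

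Outside the family, the 8 genes whose profile over the 40 libraries was most like the mean hes5 profile were, by Pearson's r, hey1.L (0.893), notch1.S (0.884, to which reads of nicd can map), sox9.S (0.853), vim.S (0.847), epha2.L (0.844), notch3.S (0.831), hey1.S (0.830) and cnfn.1.L (0.821), among 14704 candidates. Each member's r with the mean profile of the other members ran from 0.494 for hes5.4.S to 0.953 for hes5.9.L. These libraries share treatments, stages and depth, and the values are a description.

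hey1, a repressor of the related Hey family and also a Notch target, rose with nicd in both copies at every stage. hey1.S averaged 164 CPM in nicd caps and 4.07 CPM in uninjected caps at st10.5, a log2 fold change of 5.29 ± 0.72 (adjusted p = 0.00104), and hey1.L 112 and 8.75 CPM, one of 3.63 ± 0.69 (adjusted p = 0.0393). Among 43 tested copies of Notch pathway genes, nicd raised 2, 7, 10 and 4 and lowered 1, 9, 3 and 2 at st10.5, st16, st25 and st32, where 0.0126%, 7.22%, 7.1% and 4.05% of tested genes were lowered. The lowered copies included dlc.L, a Notch ligand, with 0.0715 CPM in nicd caps and 22.5 CPM in uninjected caps at st10.5 (log2 fold change -8.28 ± 1.37, adjusted p = 0.00899). lfng.S, which encodes a glycosyltransferase that modifies Notch, averaged 1.66 CPM in nicd caps and 21.2 CPM in uninjected caps at st16 (-3.76 ± 0.58, adjusted p = 7.86e-05). The median log2 fold change of the list was -0.12, 0.17, 0.31 and 0.19 at the 4 stages, against -0.10, 0.01, 0.00 and 0.00 for all tested genes.

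Among the other hes and hey genes, some of which also stand in the pathway list, both directions were seen. Of 14 tested copies 2, 3, 5 and 2 rose with nicd at the 4 stages (0.0411%, 2.71%, 5.21% and 1.78% of tested genes), and 2 fell, both at st16 (7.22% of tested genes): hes1.L averaged 0.650 CPM in nicd caps and 19.3 CPM in uninjected caps (log2 fold change -4.98 ± 0.85, adjusted p = 0.000228), and hes1.S 0.642 and 5.24 CPM (-3.12 ± 0.79, adjusted p = 0.0102). With suh-dbm alone edgeR called 0 of the 43 pathway copies at each stage, with 1, 6, 3 and 3 at an unadjusted p under 0.05. Of all tested genes 1.97%, 2.12%, 3.55% and 2.56% had such a p at the 4 stages. With suh-dbm and dnmcidas hes4.L (adjusted p = 0.00147) and hes1.S (adjusted p = 0.00363) fell at st16 and lfng.L rose (adjusted p = 0.00697).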

How the data were processed

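Whole-number counts per gene in 40 libraries were deposited by the authors, as a table for each library. Per the labels, libraries were poly-A selected, unstranded and paired-end. The submitters' processing notes name FastQC 0.11.5, STAR 2.6.0b-1, featureCounts 1.6.3 and DESeq2 1.22.1; genome build and annotation are not given in the sources used here. Between 64.3% and 72.9% of counts from 1 to 8 were even in each library, so mates may have been counted separately, and counting intervals and floors (3 counts) are then too narrow.

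All 31648 genes that passed edgeR's filterByExpr (minimum count 10, minimum total 15) were fitted in 20 groups with TMM scaling and the quasi-likelihood test (edgeR 4.0.16, limma 3.58.1, R 4.3.3; 20 residual degrees of freedom). Adjusted p-values are Benjamini-Hochberg over all tested genes of a comparison, with 0.05 as the threshold, and 37 comparisons were made. SE is the log2 fold change divided by the square root of F. CPM are counts scaled to the library's total. Members at 0 counts in one group are given as a bound at 3 counts over that group, and those with 1 to 3 counts as a pooled ratio with an exact 95% interval.

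All 17 members were eligible for naming, and the genes named outside the family were those most correlated with its mean profile and those with the lowest p in each list (at most 2 per direction and comparison). Members, gene lists and tests were chosen with earlier results of these data known. Replicate numbers mark experiments with different females and fertilizations; experiment differences of same-stage groups correlated with a median r of 0.438 (0.166 to 0.653, 40 pairs), so a fit with the experiment as a block (19 residual degrees of freedom) was also made. Other alternatives were RLE size factors, no filter on low counts, library sizes without the injected genes, DESeq2 1.42.0, each library left out in turn and, added after the data were seen, a term for a dataset number in the column headers. Scripts were tested on simulated data. Figures and shares used Python 3.11.15, pandas 2.3.3, scipy 1.17.1 and matplotlib 3.10.9.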

Additional observations from a re-analysis of the deposited data

Results flagged for a closer look

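The effect of nicd on hes5.4.S_hes8.S (hes5.4.S) differed between stages by a test of the difference itself. The fitted log2 fold change of nicd over uninjected caps was lower at st16 than at st10.5 by a difference of -9.34 ± 1.95 (SE; edgeR's interaction term, adjusted p = 0.00943). Uninjected caps held no count at st10.5, so the size of this difference depends on the fit and is no bound. The levels behind it were 31.5 and 15.1 CPM at st16 and 4.66 and 30.4 CPM at st10.5 in nicd caps, against 3.76 and 2.47 CPM at st16 and 0 and 0 CPM at st10.5 in uninjected caps. In nicd caps the libraries of the 2 stages overlapped, and in uninjected caps they did not.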

How the results depend on the processing

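No called value of a member changed sign under any alternative. Counts of members called moved most at st10.5. The share of all tested genes was taken only for the main fit and the block. Counts under the other settings therefore have no background beside them, and a setting may call more genes of every kind. For nicd against uninjected caps at st10.5 (4 members) RLE scaling called 10, no filter 13, the replicate block 11, the term for the header's dataset number 10 and DESeq2 9, and at st16 (10 members) the block called 16. For nicd against suh-dbm at st10.5 (3 members) no filter called 13, the block 11, the dataset term 6 and DESeq2 8. For suh-dbm with dnmcidas against uninjected caps, no filter called 6, the dataset term 4 and DESeq2 4 at st16 (2 members), no filter and DESeq2 each 2 at st25 (0 members), and each 3 over the mean of stages (1 member). Against suh-dbm alone at st25 (0 members) both called 2. The step of the nicd effect from st10.5 to st16 (1 member) had 3 with no filter and 2 each with the block, the dataset term and DESeq2. The next steps (0 members) had 1 each with no filter and with DESeq2, and that of suh-dbm from st10.5 to st16 (0 members) had 2 and 1. Apart from hes5.8.S, the block changed no call other than those given here and beside the results.

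Leaving out each library in turn, which leaves a single library in a group that is assumed to vary like the other groups, was fitted on the genes and dispersion trend of all libraries. It gave 0 to 5 members for nicd against uninjected caps at st10.5, 3 to 9 at st16 and 1 to 6 at st32, and 0 to 3 against suh-dbm at st10.5 and 3 to 9 at st32. It gave 0 to 2 for suh-dbm with dnmcidas at st16, 0 to 1 for its mean over stages and 0 to 1 for the step of the nicd effect to st16. The uninjected steps gave 3 to 6 members to st16, 4 to 9 to st25 and 0 to st32. Of 115 called values of members, DESeq2 lost 4 and the dataset term 1, and leaving out a library lost 121 of 680 values. The counts and tallies of this section run over all 17 members. Among the 115 values is the nicd mean over stages of hes5.8.S, which entered the tests only through nicd caps. With 2 libraries a group, counts near 0 limit what can be said of hes5.8.S throughout and of most members at st32.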

Other observations

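The 3 S copies that RefSeq names hes5 but that carry LOC symbols in the authors' table were measured in the same libraries and lie outside the rule. LOC108697692, which RefSeq names hes5.3.S, averaged 76.0 CPM in nicd caps and 0.147 CPM in uninjected caps at st10.5, a log2 fold change of 9.09 ± 1.31 (edgeR, adjusted p = 0.00226). At st16 it averaged 110 CPM in nicd caps and 13.2 CPM in uninjected caps, a log2 fold change of 3.02 ± 0.94 (adjusted p = 0.0395), and at st25 79.3 and 2.14 CPM, one of 5.24 ± 1.05 (adjusted p = 0.00103). At st32 it averaged 6.76 CPM in nicd caps and 1.31 CPM in uninjected caps and did not pass (2.34 ± 0.95, adjusted p = 0.188). In uninjected caps it was higher at st16 than at st10.5, with a log2 fold change of 7.0 ± 1.23 (adjusted p = 5.56e-05), as its L copy and both hes5.4 copies did. It was also higher in experiment 2 than in experiment 1 of nicd caps at st10.5, by a ratio of 3.42.

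LOC108697695, which RefSeq names hes5.7.S, averaged 6.94 CPM in nicd caps and 0.332 CPM in uninjected caps at st16 (log2 fold change 4.35 ± 1.33, edgeR, adjusted p = 0.0434), and 2.15 and 0.0309 CPM at st25 (5.84 ± 1.58, adjusted p = 0.0186). It did not pass at st10.5, with 45.4 CPM in nicd caps and 0.249 CPM in uninjected caps (7.40 ± 1.53, adjusted p = 0.117), or at st32, with 0.0650 CPM in nicd caps and no count in uninjected caps (adjusted p = 0.525). LOC108697697, which RefSeq names hes5.9.S, had 0.642 and 0.298 CPM in nicd caps and 1.75 and 2.30 CPM in uninjected caps at st16, a log2 fold change of -2.11 ± 1.25 that did not pass (adjusted p = 0.357). Its L copy hes5.9.L rose at that stage, with 10.3 and 3.39 CPM in nicd caps and 0.382 and 0.103 CPM in uninjected caps. The difference between the 2 copies was not tested. At the other stages LOC108697697 had fitted log2 fold changes above 0 that did not pass, 6.43 ± 1.55 at st10.5 (adjusted p = 0.201), 3.17 ± 1.33 at st25 (adjusted p = 0.130) and 4.29 ± 1.56 at st32 (adjusted p = 0.124).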
